A study of Mus musculus with 12 samples.

Results

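The genes of the proteasome were taken by their symbols: every protein-coding gene named Psma, Psmb, Psmc, Psmd, Psme, Psmf or Psmg followed by a digit. This gave 50 of the 21817 protein-coding genes with coordinates on the mouse genome mm10. The study had asked where Ctr9, a core subunit of the Paf1 elongation complex (Paf1C), binds chromatin in mouse embryonic stem cells (mESCs, E14 line) and in NIH3T3 cells, an established line of mouse embryonic fibroblasts. Ctr9-GFP and H3K27ac were profiled by ChIP-seq in both lines, NELFA-GFP, RNAPII Ser5p and RNAPII Ser2p in mESCs alone, and the RNA of each line was sequenced. Each of these 9 libraries was made once, so no value below has a replicate and no difference between the lines could be tested. Both lines were grown in the same serum medium with LIF and received no treatment. The Ctr9-GFP cells carried the tag at the 3′ end of the endogenous gene and were a sorted pool of GFP-positive cells, not a single clone, and NELFA carried a GFP tag in another mESC line, in which RNAPII Ser5p was also profiled according to the study's text. The labels do not say whether the RNA came from tagged or parental cells. The pluripotency genes Pou5f1 (TPM 1402 and 0 in mESCs and NIH3T3 cells) and Zfp42 (286.0 and 0) and the collagen gene Col1a1 (0.203 and 901) marked the lines as labelled. The immune cell markers Ptprc, Cd74 and Lyz2 were near 0 in both lines.

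The proteasome is the protease that degrades most proteins marked with ubiquitin. Its 20S core is a barrel of stacked rings of alpha and beta subunits, and the catalytic sites sit inside the beta rings, on the products of Psmb5, Psmb6 and Psmb7. The 19S cap binds the ubiquitin chain, removes it, and unfolds the substrate with a ring of ATPases encoded by the Psmc genes. Because the particle holds its subunits in fixed ratios, their genes are known as a co-regulated set, which in mammals responds to the transcription factor Nfe2l1 when the protease is short. In cells of the immune system or under interferon, Psmb8, Psmb9 and Psmb10 replace the standard catalytic subunits and form the immunoproteasome.

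A NELFA peak lay over 5 of the 50 proteasome genes (10%), close to the 10.4% of all protein-coding genes. An RNAPII Ser5p peak lay over 2 (4%, against 12.8%) and an RNAPII Ser2p peak over 1 (2%, against 6.96%). The promoters of these genes are shown here because those peaks lay near their starts. The sequences are the RefSeq windows of GRCm38.p6 from 250 bases before to 50 bases after the start, written 5′ to 3′ on the strand of the gene. Capitals mark the letters CCGGAAG on either strand (CTTCCGG on the other), a core that ETS factors recognize, and windows wholly in lower case have none. The RNAPII Ser2p peak of Psmg1 lay downstream of the printed window, and the NELFA peak of Psmd8 barely reached into its window. The RefSeq start of the Psmd5 window lay far upstream of the start of that gene's main protein-coding transcript (-13271 bps).

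Psma6, Psmd2, Psmd8, Psmd5 and Psme3 had a NELFA peak, Psma3 and Psme3 an RNAPII Ser5p peak, and Psmg1 an RNAPII Ser2p peak.
Psma6, chr12:55398575-55398874, plus strand: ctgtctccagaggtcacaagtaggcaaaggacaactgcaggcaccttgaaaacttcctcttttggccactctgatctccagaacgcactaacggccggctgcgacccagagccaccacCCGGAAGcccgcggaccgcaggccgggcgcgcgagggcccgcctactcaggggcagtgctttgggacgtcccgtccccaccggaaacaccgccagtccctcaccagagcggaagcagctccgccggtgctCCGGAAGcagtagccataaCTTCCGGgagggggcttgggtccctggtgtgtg
Psmd2, chr16:20651402-20651701, plus strand: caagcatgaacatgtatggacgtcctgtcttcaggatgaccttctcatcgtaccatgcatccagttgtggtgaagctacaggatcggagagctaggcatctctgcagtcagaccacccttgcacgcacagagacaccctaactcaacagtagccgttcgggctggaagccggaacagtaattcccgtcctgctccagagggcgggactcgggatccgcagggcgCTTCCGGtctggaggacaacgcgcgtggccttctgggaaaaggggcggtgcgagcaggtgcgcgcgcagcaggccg
Psmd8, chr7:29180624-29180923, minus strand: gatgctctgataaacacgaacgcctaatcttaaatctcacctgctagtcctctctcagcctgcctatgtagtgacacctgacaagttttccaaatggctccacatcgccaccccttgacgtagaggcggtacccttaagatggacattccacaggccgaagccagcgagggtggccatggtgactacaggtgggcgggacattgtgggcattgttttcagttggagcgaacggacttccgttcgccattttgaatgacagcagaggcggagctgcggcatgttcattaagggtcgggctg
Psmd5, chr2:34870913-34871212, minus strand: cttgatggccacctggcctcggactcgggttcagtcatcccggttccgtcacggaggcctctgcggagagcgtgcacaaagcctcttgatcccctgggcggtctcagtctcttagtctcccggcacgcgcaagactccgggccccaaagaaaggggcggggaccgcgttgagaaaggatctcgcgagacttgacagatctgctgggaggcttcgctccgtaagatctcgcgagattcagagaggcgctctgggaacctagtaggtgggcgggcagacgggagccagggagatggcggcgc
Psme3, chr11:101315963-101316262, plus strand: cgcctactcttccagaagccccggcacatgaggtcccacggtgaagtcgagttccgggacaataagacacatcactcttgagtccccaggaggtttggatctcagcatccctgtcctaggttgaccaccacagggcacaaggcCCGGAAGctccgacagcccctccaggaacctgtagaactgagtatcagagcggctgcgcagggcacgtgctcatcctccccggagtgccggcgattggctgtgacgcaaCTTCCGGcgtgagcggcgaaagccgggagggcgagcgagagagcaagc
Psma3, chr12:70974373-70974672, plus strand: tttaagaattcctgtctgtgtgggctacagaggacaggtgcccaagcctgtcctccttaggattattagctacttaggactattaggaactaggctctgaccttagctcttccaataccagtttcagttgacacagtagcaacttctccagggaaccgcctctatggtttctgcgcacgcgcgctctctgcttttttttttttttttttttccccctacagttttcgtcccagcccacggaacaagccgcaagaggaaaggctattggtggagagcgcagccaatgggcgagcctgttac
Psmg1, chr16:95990911-95991210, minus strand: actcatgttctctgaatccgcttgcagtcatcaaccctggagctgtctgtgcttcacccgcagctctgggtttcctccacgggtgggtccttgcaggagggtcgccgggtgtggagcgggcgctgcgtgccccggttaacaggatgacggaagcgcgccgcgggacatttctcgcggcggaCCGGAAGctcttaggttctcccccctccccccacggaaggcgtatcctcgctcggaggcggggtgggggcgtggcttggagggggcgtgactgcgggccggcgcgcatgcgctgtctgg

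The level of a gene is the TPM of its most abundant transcript in that library, as in the methods of the study, where TPM is a share of all transcripts that corrects for transcript length and depth. This transcript was not the same one in both lines for 8 of the 50 genes. The proteasome genes were strongly expressed in both lines. Their median TPM was 109 in mESCs and 77.1 in NIH3T3 cells, against 1.26 and 0.813 over all protein-coding genes. High expression, the top 25% of genes with a TPM above 0 (at least 21.7 in mESCs and 23.5 in NIH3T3 cells), was reached by 40 of 50 in mESCs and 38 of 50 in NIH3T3 cells, against 18.5% and 16.7% of all protein-coding genes. Summed over all transcripts, the 50 genes took 0.718% of the mRNA in mESCs and 0.683% in NIH3T3 cells, on the TPM scale. In bulk RNA, fewer expressing cells and less RNA per cell cannot be told apart.

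**Figure D1:**
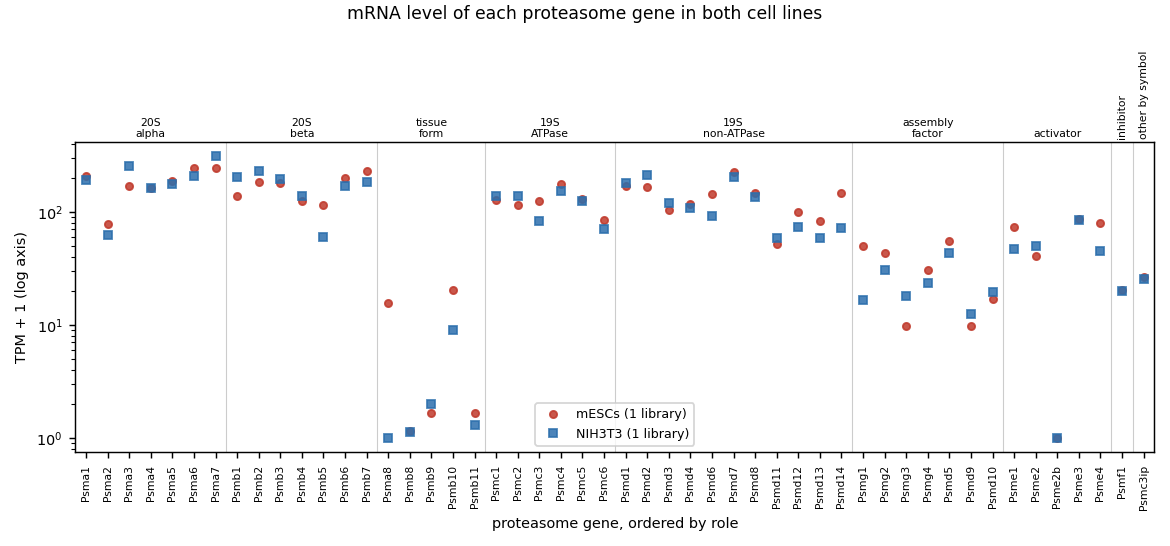
Level of each of the 50 proteasome genes (TPM + 1, log axis), grouped by role, in mESCs (circles) and NIH3T3 cells (squares), with 1 library each and no error bars. The core and cap genes form a band from 50.9 to 309 TPM in both lines, the assembly factors and the inhibitor lie lower except for Psmd5 at 53.8 in mESCs, and 3 of the 5 tissue forms lie near the floor in both.

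The 14 standard genes of the 20S core lay close together. The 7 alpha genes, which build the outer rings and the gate, ranged from 77.1 TPM (Psma2) to 246 (Psma6) in mESCs and from 61.5 (Psma2) to 309 (Psma7) in NIH3T3 cells. The 7 beta genes ranged from 113 (Psmb5) to 231 (Psmb7) in mESCs and from 59.1 (Psmb5) to 231 (Psmb2) in NIH3T3 cells. The highest beta gene thus stood 2.03 times above the lowest in mESCs and 3.91 times in NIH3T3 cells.

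The other core genes lay between these values. Psma1, Psma5 and Psma4 stood at 206, 186 and 160.1 TPM in mESCs and at 190.1, 177 and 162 TPM in NIH3T3 cells. Psmb3 and Psmb4 stood at 181 and 124 in mESCs and at 193 and 138 in NIH3T3 cells. Psmb1 and Psmb2 were lower in mESCs (138 and 184) than in NIH3T3 cells (202 and 231), by a log2 difference of -0.54 and -0.33.

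The 17 genes of the 19S cap followed at similar levels. The 6 ATPase genes, whose products unfold the substrate, ranged from 84.0 (Psmc6) to 174 (Psmc4) in mESCs and from 69.1 (Psmc6) to 151 (Psmc4) in NIH3T3 cells. The most abundant Psmc6 transcript was not protein-coding, was not the same one in both lines, and held part of the gene's RNA. Over all transcripts Psmc6 stood above Psmc4, at 245 against 181 in mESCs and at 204 against 160 in NIH3T3 cells. Among the 11 other cap genes, Psmd7 was highest in mESCs (TPM 226) and Psmd2, a large scaffold subunit of the base, in NIH3T3 cells (213). The lowest were Psmd11 in mESCs (50.9) and Psmd13 in NIH3T3 cells (57.3). For both of these low values the most abundant transcript held part of the gene's RNA, and over all transcripts Psmd11 reached 161 in mESCs and Psmd13 106 in NIH3T3 cells.

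The genes whose products assemble, activate or inhibit the particle reached lower levels, with some overlap. The 7 assembly factors ranged from 8.76 (Psmd9) to 53.8 (Psmd5) in mESCs and from 11.6 (Psmd9) to 42.2 (Psmd5) in NIH3T3 cells. Psme3, which encodes the nuclear activator PA28 gamma, was the highest activator gene, at 85.4 and 83.3. Psme2b, the lowest activator gene, was listed at 0 in both lines, and its sequence is close to that of Psme2, so reads of the pair may be hard to assign. Psmf1, the inhibitor PI31, stood at 19.2 and 18.8. Psmc3ip also entered by its symbol, at 25.4 and 24.6, but its product acts in meiotic recombination and is no subunit.

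The 3 standard catalytic genes far exceeded their immune counterparts. Psmb5 reached 113 TPM in mESCs and 59.1 TPM in NIH3T3 cells, whereas Psmb8, which replaces it in the immunoproteasome, had 0.145 and 0.135, from 2 estimated counts in each library. Psmb6 stood at 200.2 and 168, and its counterpart Psmb9 at 0.661 and 0.986. Psmb7 stood at 231 and 183, and its counterpart Psmb10 at 19.3 and 8.08 by non-coding transcripts. The protein-coding transcript of Psmb10 had 1.87 and 3.95. The immune forms Psmb8 and Psmb9 were thus near absent in both lines, and Psmb10 was the immune form with the most RNA. Psmb11, the form of the thymic cortex, lay at 0.661 and 0.299. Psma8, the alpha form of the male germ line, was found in mESCs alone, and is described next.

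Between the lines the proteasome genes differed little. The difference is given as log2 of (TPM + 1) in mESCs over NIH3T3 cells, a scale that understates the change of genes with low values. Its median was 0.09 over the 50 genes and 0.07 over the protein-coding genes with a TPM of at least 1 in both lines. At least 2-fold higher in mESCs were 4 proteasome genes (8%), where 13.5% of all protein-coding genes were, and none was 2-fold lower, where 11.3% of all genes were. Among the 12347 genes with a TPM of at least 1 in 1 or both lines, these shares were 23.9% and 20.0%. In absolute size, the median log2 difference was 0.28 over the 50 genes, a factor of 1.22. For the 31 standard core and cap genes it was 0.25, a factor of 1.19, and 1 of them was past 2-fold. Among the 2731 genes of high expression in both lines the same median was 0.44, a factor of 1.36, and 16.9% were past 2-fold, against 2.63% of the 38 proteasome genes in that class. With 1 library per line, the spread between replicates is unknown, and these values describe these libraries.

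**Figure D2:**
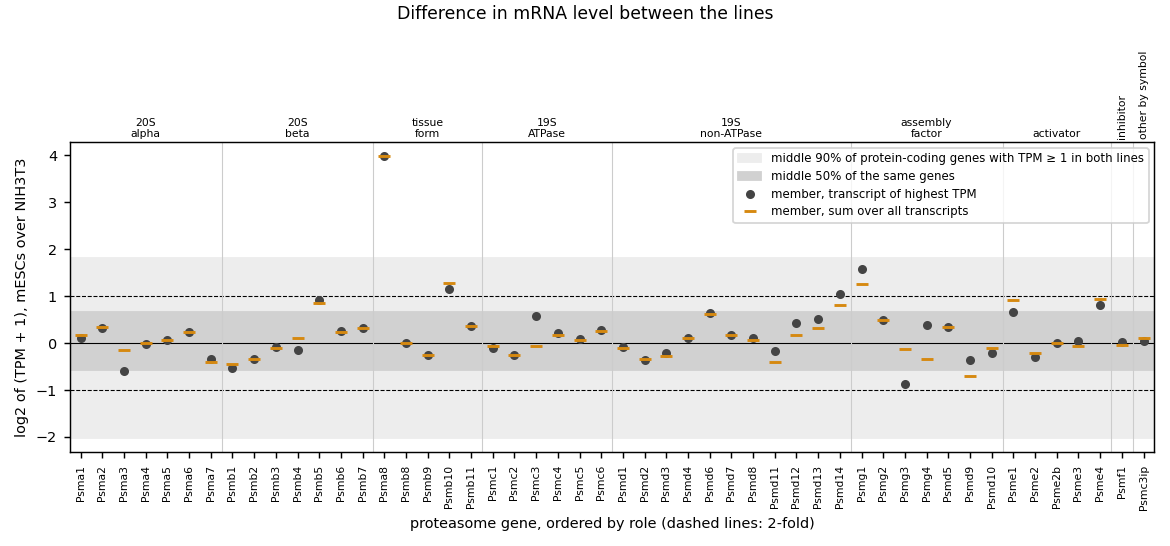
Difference in level of each proteasome gene between the lines (log2 of TPM + 1, mESCs over NIH3T3 cells; 1 library each), from the most abundant transcript (circles) and from all transcripts summed (bars). Grey bands hold the middle 50% and 90% of genes with a TPM of at least 1 in both lines. Most proteasome genes lie within the inner band, and Psma8, Psmb10, Psmd14 and Psmg1 lie above the 2-fold line, Psmd14 by its most abundant transcript alone.

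Psma8 showed the widest gap. Its TPM was 14.8 in mESCs, from 419 estimated counts with a 95% Poisson interval of 380 to 461, and it was listed at 0 in NIH3T3 cells. Set against the floor of 3 counts in the NIH3T3 library, it was at least 158-fold higher in mESCs. The interval covers counting error alone, as do all those below, and not the split of reads among transcripts.

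Psmg1, a chaperone that pairs with the product of Psmg2 to assemble the alpha ring, reached 49.4 TPM in mESCs and 15.8 TPM in NIH3T3 cells, a log2 difference of 1.59. These values rest on 830 estimated counts (95% Poisson interval 774 to 888) and 287 (255 to 322). Its partner Psmg2 stood at 42.0 and 29.6, a log2 difference of 0.49. The 2 other chaperones of this kind, Psmg3 and Psmg4, differed by -0.88 and 0.38, and by -0.13 and -0.34 over all transcripts. Psmg1 was thus the assembly factor past 2-fold, and its sum over all transcripts kept it there, at a log2 difference of 1.26.

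For Psmd14 and Psmb10 the value depended on the transcript. Psmd14 encodes the deubiquitinase that cuts the ubiquitin chain from the substrate, and its most abundant transcript, a processed transcript with no annotated reading frame, had a TPM of 146 and 70.7. Its protein-coding transcript stood at 101 and 59.5, a log2 difference of 0.75. For Psmb10 the most abundant transcripts were non-coding in both lines and were not the same one. Its protein-coding transcript stood at 1.87 and 3.95, mESCs first, a log2 difference of -0.79, so the order of the lines turned. In all, the most abundant transcript was of a class other than protein-coding in 1 or both lines for 9 of the 50 genes. These classes were processed transcripts, retained introns and targets of nonsense-mediated decay. Counted by protein-coding transcripts, Psma8, Psmg1, Psme1 and Psmc3ip were past 2-fold, with Psme1, an activator subunit, at a log2 difference of 1.39. Neither of these counts was made over all protein-coding genes.

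A further 7 genes lay between 1.5-fold and 2-fold. Higher in mESCs were Psmb5 (log2 difference 0.93), Psme4, the activator PA200 (TPM 78.6 and 44.3, log2 difference 0.81), Psme1 (72.8 and 45.6, 0.66), Psmd6 (142 and 90.7, 0.64) and Psmc3 (123 and 81.7, 0.59). Lower in mESCs were Psmg3 (8.85 and 17.1, -0.88) and Psma3 (169 and 255, -0.59). For Psme1 and Psmg3 the most abundant transcript was not the same one in both lines. The Psme1 transcript that led in mESCs stood at 72.8 and 26.9 TPM. The Psmg3 transcript that led in mESCs stood at 8.85 and 0.531, and the one that led in NIH3T3 cells at 7.52 and 17.1. Over all transcripts the log2 difference stayed at 0.87 for Psmb5, 0.94 for Psme4, 0.93 for Psme1 and 0.63 for Psmd6, and came to -0.06 for Psmc3, -0.15 for Psma3 and -0.13 for Psmg3. For Psma3 the most abundant transcript is annotated as a target of nonsense-mediated decay, and over protein-coding transcripts the order of the lines turned, with 116 TPM in mESCs and 67.7 in NIH3T3 cells (log2 difference 0.77). The catalytic gene Psmb5 was thus the standard core gene with the widest difference by these measures, and its catalytic partners Psmb6 and Psmb7 differed by 0.25 and 0.33.

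Other genes of the pathway were listed apart from the symbol rule. Of 36 such genes found in the tables, 1 was at least 2-fold higher in mESCs and 6 were at least 2-fold lower, where 13.5% and 11.3% of all protein-coding genes and 23.9% and 20.0% of those with a TPM of at least 1 in 1 or both lines were. The higher one was Akirin2, which guides proteasomes into the nucleus (TPM 104 and 51.0, a factor of 2.02 on TPM + 1). Among the lower ones, Ecpas, a proteasome adaptor, stood at 9.85 in mESCs and at 66.4 in NIH3T3 cells. The other 5 were Tap1, Tap2, Tapbp, B2m and Erap1, out of 8 antigen processing genes. B2m, the light chain of MHC class I, stood at 31.0 and 497. Tap2, a subunit of the peptide transporter, had 0.106 and 11.1, while its genomic neighbour Psmb8 lay near 0 in both. Nfe2l1 stood at 35.6 and 46.96. None of the 6 shuttle genes and none of the 6 ubiquitin genes was past 2-fold.

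Peaks were counted over the gene body, 1 kb upstream and 5 kb downstream, and 1 shared bp counted as an overlap. Ctr9 peaks of mESCs lay over 41 of the 50 proteasome genes, where 44.0% of all protein-coding genes had one, and those of NIH3T3 cells over 28, where 25.7% had one. H3K27ac, a mark of active promoters and enhancers, had a peak over 37 in mESCs (43.0% of all genes) and over 45 in NIH3T3 cells (54.7%). NELFA had a peak over 5 (10.4% of all genes), RNAPII Ser5p over 2 (12.8%) and RNAPII Ser2p over 1 (6.96%). The lists differ in size, from 1675 peaks for RNAPII Ser2p to 44748 for Ctr9 in mESCs, and hold no read counts, so the depth behind a missing peak is unknown.

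**Figure D3:**
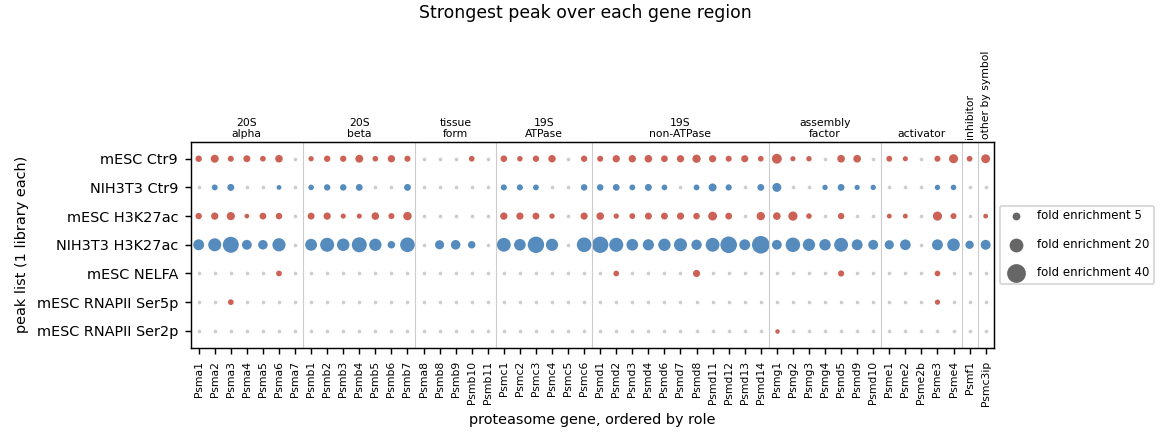
Strongest peak over each proteasome gene in each of the 7 peak lists, with 1 library each. The area of a circle is the fold enrichment over local background, and a small grey dot marks a gene with no peak. Over the 31 core and cap genes, Ctr9 peaks of mESCs and H3K27ac peaks of both lines are nearly continuous and Ctr9 peaks of NIH3T3 cells have gaps. Over all 50 proteasome genes, NELFA marks 5, RNAPII Ser5p 2 and RNAPII Ser2p 1.

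Set beside genes of high expression, the proteasome genes were close in Ctr9 and H3K27ac but had few NELFA and RNAPII peaks. The class is not matched for level or length. The 38 proteasome genes high in both lines had a median of 129 TPM in mESCs, against 63.0 for all 2731 such genes. Their median bodies were 12463 and 18024 bps. Among genes of high expression in mESCs, a Ctr9 peak lay over 37 of 40 proteasome genes (92.5%, exact 95% interval 79.6 to 98.4%) and over 91.9% of all such genes. For H3K27ac the shares were 90% and 89.7%. RNAPII Ser5p, the form that gathers at promoters, had a peak over 5% of the proteasome genes (0.611 to 16.9%) and over 36.4% of all genes of high expression. NELFA, a subunit of the factor that holds RNAPII near the start, had a peak over 12.5% (4.19 to 26.8%) and over 29.4%. RNAPII Ser2p, the elongating form, had a peak over 2.50% (0.0633 to 13.2%) and over 21.4%. For each of these 3 lists of mESCs the share of all high genes lay above the interval of the proteasome genes. That interval takes the genes as independent and rests on 1 library per list, so it is no test of a difference. In NIH3T3 cells 24 of 38 proteasome genes of high expression had a Ctr9 peak (63.2%, against 65.8% of all such genes) and 36 of 38 an H3K27ac peak (94.7%, against 97.5%).

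The gap was wider at a stricter limit of expression. Of 26 proteasome genes with a TPM of at least 100 in mESCs, 1 had an RNAPII Ser5p peak (3.85%), against 57.3% of the 904 genes at that level. NELFA had a peak over 3 of the 26 (11.5%), against 44.5%. None of the 26 had an RNAPII Ser2p peak, with an exact interval up to 13.2%, against 41.3%. For Ctr9 and H3K27ac in mESCs 24 of the 26 had a peak (92.3%), against 94.9% and 91.8%. In NIH3T3 cells a Ctr9 peak lay over 14 of 22 proteasome genes at this level (63.6%, exact interval 40.7 to 82.8%), against 79.8%, and an H3K27ac peak over 20 of 22 (90.9%), against 95.8%.

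**Figure D4:**
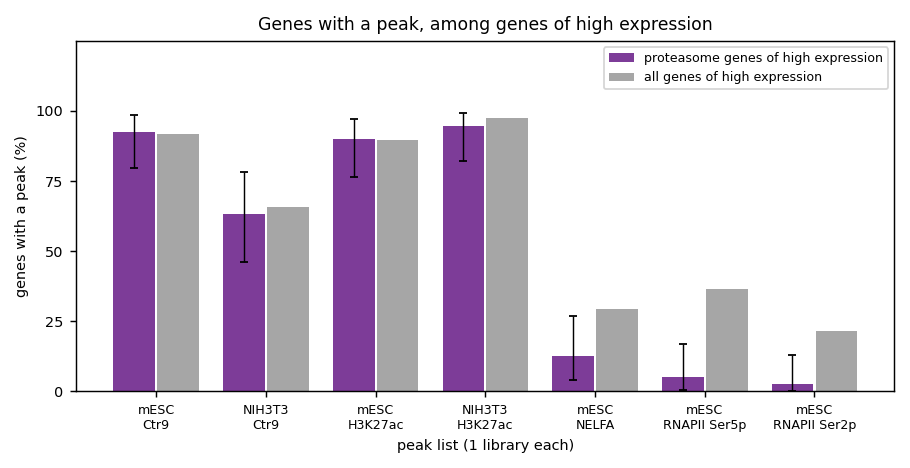
Share of genes with a peak in each list, among genes of high expression in that line (40 proteasome genes in mESCs, 38 in NIH3T3 cells). Error bars are exact 95% binomial intervals for counting error, drawn for the proteasome genes. The pairs of bars are close for Ctr9 and H3K27ac and apart for NELFA, RNAPII Ser5p and RNAPII Ser2p.

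The 8 peaks of NELFA and RNAPII at proteasome genes all lay near a RefSeq start and were weak to moderate. The strongest was the NELFA peak of Psmd8, a cap subunit, with a fold enrichment of 7.18 175 bps downstream of the start at its summit. Psmd5, an assembly factor, followed with 5.29 and a summit 65 bps downstream. The NELFA summits of Psma6 (4.62), Psmd2 (4.55) and Psme3 (4.49) lay 130, 105 and 70 bps upstream of the start, inside the windows printed above. The median over all genes with a NELFA peak was 5.08. Psme3 was the proteasome gene with both a NELFA and an RNAPII Ser5p peak, the latter with a fold enrichment of 3.83 and a summit 122 bps upstream. The RNAPII Ser5p peak of Psma3 had a fold enrichment of 4.63 and a summit 107 bps downstream. The one RNAPII Ser2p peak, at Psmg1, had a fold enrichment of 2.80 and a −log10 q of 2.53, close to the cutoff of the authors at 2, with the summit at 172 bps past the start.

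Psmg1 also had the highest Ctr9 fold enrichment among the proteasome genes in both lines. In mESCs its strongest Ctr9 peak, at chr16:95990197-95991112, had a fold enrichment of 13.6 and a summit 189 bps downstream of the start. In NIH3T3 cells the peak at chr16:95990017-95990984 had 11.1 and a summit 177 bps downstream. These Ctr9 summits fell 17 bps (mESCs) and 5 bps (NIH3T3 cells) from the RNAPII Ser2p summit of this gene in mESCs. Next in mESCs came Psme4 (11.4, with the summit 5160 bps past the gene end), Psmc3ip (10.9), Psmd8 (9.62) and Psma2 (8.92). Next in NIH3T3 cells came Psmd11 (8.94), Psma3 and Psmd4 (6.76 each) and Psmb7 (6.56). The median over the proteasome genes was 5.73 in mESCs and 5.27 in NIH3T3 cells, and over all genes with a Ctr9 peak it was 5.62 and 5.20.

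The median fold enrichment of the strongest H3K27ac peak of a proteasome gene was 6.58 in mESCs, against 5.44 over all genes with an H3K27ac peak, and 20.7 in NIH3T3 cells, against 15.0. The highest in mESCs were Psmg2 (11.8), Psme3 (11.7) and Psmd11 (10.9), and in NIH3T3 cells Psmd14 (43.0), Psmd12 (38.4) and Psmc3 (37.5), genes chosen here after their values were seen. Psmg1 was at least 2-fold higher in mRNA in mESCs, and Psmd14 was so by its non-coding transcript alone. Their H3K27ac fold enrichment was 8.12 and 9.75 in mESCs, where the median over all genes with a peak was 5.44. In NIH3T3 cells it was 13.4 and 43.0, where that median was 15.0. Fold enrichment depends on depth and background, so these values do not show whether H3K27ac differed between the lines.

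Ctr9 was found over 26 proteasome genes in both lines (52.0%, where 22.3% of all genes had a peak in both), over 15 in mESCs alone, over Psmg4 and Psmd10 in NIH3T3 cells alone, and over 7 in neither. Over all protein-coding genes the last 3 shares were 21.7%, 3.41% and 52.6%, against 30%, 4% and 14% of the proteasome genes. The genes with Ctr9 in mESCs alone had a median log2 difference in mRNA of 0.17, and those with Ctr9 in both lines of 0.07. Psmb5, Psmb6, Psmc4 and Psmd7 were among those with Ctr9 in mESCs alone, with TPM values of 59.1, 168, 151 and 201 in NIH3T3 cells, so a strong mRNA was present there with no Ctr9 peak called.

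The strongest Ctr9 peak of a proteasome gene usually lay at or past its end, as for most genes of high expression. Only peaks with the summit inside the counted region were ranked here. Psme4 in mESCs was therefore placed by a weaker peak (fold enrichment 4.99). Psmd4 had no such summit in NIH3T3 cells and was left out there. In mESCs the strongest summit lay within 1 kb of the gene end for 8 of 41 genes and 1 to 5 kb past it for 27. It lay at the start for 4. At or past the end were thus 35 of 41 (85.4%, exact 95% interval 70.8 to 94.4%). The same held for 81.0% of all genes of high expression in mESCs and for 83.6% of those with a body between 6627 and 24842 bps, the middle range of the proteasome genes. In NIH3T3 cells it held for 16 of 27 (59.3%), against 51.4% of genes of high expression. The strongest H3K27ac summit lay instead within 1 kb of the start, for 32 of 37 genes in mESCs (86.5%) and 38 of 45 in NIH3T3 cells (84.4%), against 80.7% and 82.1% of genes of high expression. The regions of 38 of the 50 genes met the body of another protein-coding gene, so a peak past the end may belong to a neighbour. Among the 11 genes with Ctr9 in mESCs whose region met none, the strongest summit lay at or past the end for 9.

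Counting every summit, 62.4% of the 157 Ctr9 summits over proteasome genes in mESCs lay at or past the end (exact 95% interval 54.3 to 70.0%). The share was 36.6% over all genes and 30.4% over genes of high expression. In NIH3T3 cells 45.7% of 140 lay there (37.3 to 54.3%), against 34.4% and 31.5%. Within 1 kb of the start lay 5.73% and 10.7% in mESCs and NIH3T3 cells, against 5.58% and 11.7% over all genes. Many genes held several summits, and the intervals take each summit as independent, so they do not measure the spread between genes. By the strongest summit of each gene, the proteasome genes lay nearer to genes of high expression (85.4% against 81.0% in mESCs). The proteasome genes were short, with a median body of 11638 bps against 23946 bps for genes with a TPM of at least 1 in both lines, and fewer of their summits fell in the body.

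**Figure D5:**
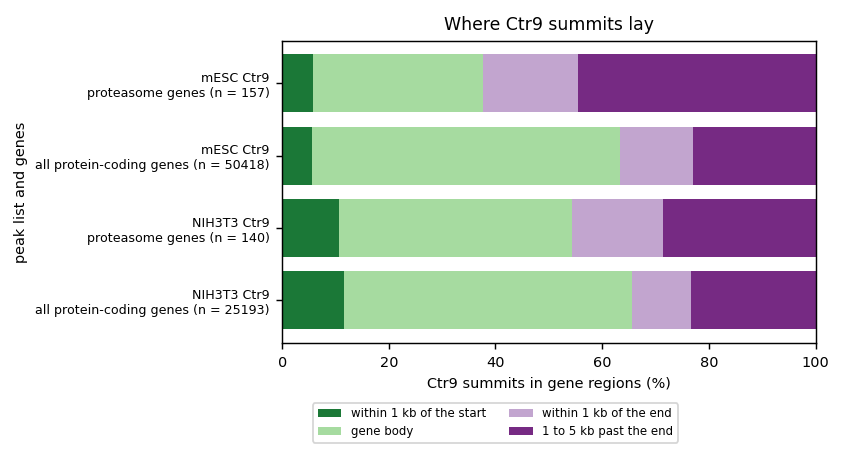
Position of Ctr9 summits within gene regions (percent of summits, n in the labels), for proteasome genes and for all protein-coding genes, in both lines. In mESCs the proteasome genes had 31.8% of summits in the body and 44.6% from 1 to 5 kb past the end, against 57.8% and 22.9% over all genes.

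Of the 50 genes, 5 had no peak in any list, where 36.2% of all protein-coding genes had none. Psma8, Psmb11 and Psme2b were low or absent in mRNA. Psma7 and Psmc5 were not: Psma7, an alpha subunit, reached 244 TPM in mESCs and 309 TPM in NIH3T3 cells, and Psmc5, an ATPase of the cap, 130.2 and 123. Psma7 (chr2:180036374-180042433) lay in a stretch of 89.1 kb with no peak of any of the 7 lists. Psmc5 (chr11:106256154-106263120) lay in a stretch of 138 kb without one, with the next peak 1.34 kb from the gene on one side, beyond its 1 kb upstream limit, and 130 kb on the other. The authors removed reads in blacklisted regions before calling peaks, and whether these stretches lost reads in that way was not tested, so a missing peak here does not show that the protein or mark was absent. Psmb8 and Psmb9 had an H3K27ac peak in NIH3T3 cells (fold enrichment 11.5 and 12.8) and none in mESCs, and their regions also met Tap1 or Tap2, so the peaks may belong to those genes.

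The promoter windows were searched for 9 motifs on both strands, and 42 of the 50 genes had a window. For these, 1 window per gene was used, nearest the start of its main protein-coding transcript. For some genes even the nearest RefSeq start lay far from that transcript start. The distance was -13271 bps for Psmd5, -3599 for Psmb9, -3530 for Psma2 and 2876 for Psmf1, where negative values are upstream. The shares over all windows and over genes of high expression count every RefSeq window, so there a gene can count more than once. The ETS letters CCGGAAG were found in 15 of the 42 (35.7%), against 8.86% of all 32851 windows and 23.3% of the 3940 windows of genes of high expression in mESCs. They were found in 9 of 14 windows of cap genes (Psmc1, Psmc2, Psmc6, Psmd2, Psmd4, Psmd6, Psmd11, Psmd12 and Psmd13) and in 1 of 11 windows of standard core genes (Psma6). Of the 7 windows printed above, those of Psma6, Psmd2, Psme3 and Psmg1 held them. The letters TGACNNNGC of the antioxidant response element, to which Nfe2l1 binds, were found in 6 of the 42 (14.3%), near the share of all windows (12.4%) and of high genes (15.9%). They included the catalytic genes Psmb5 and Psmb6. The interferon stimulated response element was found in 5 (11.9%), against 3.44% and 2.79%. These were Psmb3, Psmd4, Psmg4, Psmd9 and Psme1. None of the 4 windows of tissue forms, which include Psmb8, Psmb9 and Psmb10, held it. The Sp1 letters GGGCGG were in 54.8%, against 35.7% and 67.1%, and the NF-Y letters CCAAT in 33.3%, against 37.4% and 40.5%. TATAAA was found in 4 windows (9.52%, against 13.6% and 7.28%), the E-box CACGTG in 4 (against 7.15% and 12.4%), AAGATGGC of YY1 in 3 (7.14%, against 2.75% and 6.45%), and the site of nuclear respiratory factor 1 in 2 (4.76%, against 0.971% and 2.39%). A match describes these letters in this window and not a bound site.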

How the data were processed

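The authors aligned ChIP-seq reads to mm10 with Bowtie2 2.3.5.1, removed blacklisted regions and called peaks per library (MACS2 2.2.6, q-value cutoff 0.01). The deposited lists give, per peak, a score, the fold enrichment (a ratio to local background), and −log10 p and −log10 q of the summit. Input libraries (3) have no processed file and were not used. RNA-seq reads were quantified by the authors with kallisto 0.46.1 against GENCODE, and each deposited table holds TPM and estimated counts by transcript; the library preparation was strand-specific per the labels. Estimated counts summed to 26400407 in mESCs and 28849497 in NIH3T3 cells. ChIP-seq depth is unknown.

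Here, gene levels were the TPM of the highest transcript in each library, and differences were log2 of TPM plus 1. With 1 library per group no test was run. Gene coordinates were those of GENCODE (mm10), and promoters those of RefSeq (GRCm38.p6). Overlaps, places and intervals (exact Clopper-Pearson and Poisson, 95%) were computed with SciPy 1.17.1, NumPy 2.4.6 and pandas 2.3.3 (Python 3.11.15), drawn with Matplotlib 3.10.9, and the overlap, place and motif code was tested on simulated data (5 of 5 checks passed). The members, pathway list, motifs and rules were chosen with earlier results of these data known. The genes named in full are the highest and lowest of each role and line, those 2-fold apart, those with no peak or with a NELFA or RNAPII peak, the 5 with most Ctr9, and the catalytic pairs. Paaf1, on the pathway list, was not analysed here.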

Additional observations from a re-analysis of the deposited data

How the results depend on the processing

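Of 74 alternatives, 60 kept their value within 1.5 times (counts) or within its interval, and no count or median reported turned its direction. With all transcripts summed, the median TPM was 154 in mESCs and 140 in NIH3T3 cells. At a 1.5-fold threshold, 9 proteasome genes were higher in mESCs and 2 lower, and the share of all protein-coding genes at that limit was not counted. Centring on expressed genes, whose median log2 difference was 0.07, left 3 genes 2-fold higher, without Psmd14. With a −log10 q of at least 5, no RNAPII Ser2p peak was left (0 of 50). Among the 12 regions that met no other gene body, 91.7% had a Ctr9 and 91.7% an H3K27ac peak in mESCs. Among genes with a TPM of at least 100, a limit chosen after seeing the data, these shares were 92.3% and 92.3%, and that of RNAPII Ser2p was 0%. With a window of 500 bp in place of 1 kb, Ctr9 summits at the start fell to 2.55% in mESCs and 3.57% in NIH3T3 cells, and at the end to 8.92% and 7.14%, as the narrower window holds fewer summits. The place of the strongest peak and its comparison by body length were also added after seeing the data. No paired analysis was possible because each group has 1 library, and for the same reason no replicate could be left out. Low counts limit Psmb8 and Psmb9, and unknown ChIP-seq depth limits every missing peak.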
